A study of Mus musculus with 8 samples.

Results

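The myostatin, activin and follistatin axis was described here by 10 genes taken by name, all of which were found among the 24980 gene symbols of the count table and all of which passed the filter on low counts. They were the ligand genes Mstn, Gdf11, Inhba and Inhbb, the follistatin family genes Fst, Fstl1 and Fstl3, and the receptor genes Acvr1b, Acvr2a and Acvr2b. RNA was sequenced from 8 mouse libraries, 2 biological replicates in each of 4 groups. TF denotes myogenic progenitors that were isolated, without culture, from the teratomas E14-EGFP embryonic stem cells had formed in irradiated, cardiotoxin-injured muscle of NSG-mdx4Cv mice, where the sort kept cells with EGFP, alpha7-integrin and VCAM-1 and without CD31 or CD45. TE cells were such sorted cells after culture in expansion medium to passage 8. SF denotes satellite cells, which are resident stem cells of adult muscle, taken without culture, and SE denotes satellite cells cultured to passage 8. All teratoma-derived libraries came from 1 embryonic stem cell line, and the host mice were immunodeficient and lacked dystrophin. The strain and age of the satellite cell donors are not given in the sources used here.

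Myostatin (Mstn) and its close relative Gdf11, and the activins, which are dimers of the Inhba or Inhbb product, are secreted ligands of the transforming growth factor beta family. They are made as precursors that proteases cut, and they bind the type II receptors Acvr2a or Acvr2b, which then recruit a type I receptor such as Acvr1b and pass the signal to Smad2 and Smad3. Follistatin (Fst) and Fstl3 bind these ligands outside the cell and block them, whereas Fstl1 carries a follistatin-like domain but is not a classical activin blocker. In muscle, myostatin is known as a brake on growth that muscle itself makes, and follistatin as its antagonist.

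Normalized counts below are estimated counts divided by median-ratio size factors. Differences are log2 fold changes, with their standard errors, from edgeR's quasi-likelihood model of all 17582 genes that passed the filter. A gene is called where the adjusted p-value is below 0.05 and the fold change exceeds the study's threshold. Libraries held between 11930961 and 21146632 counts. Rn45s, the ribosomal RNA precursor, made up 7.99% to 21.3% of these. The 7 myogenic markers Pax7, Myf5, Myod1, Itga7, Vcam1, Des and Cdh15 had counts in every library and summed to between 20112 and 50065 normalized counts. The freshly isolated libraries also held markers of other cell types. The 6 fibro-adipogenic markers (Pdgfra, Ly6a, Dpt, Smoc2, Lum, Scara5) summed to 15633 and 16736 normalized counts in TF and to 9356 and 15580 in SF, against 71.1 and 110.2 in TE and 119 and 109 in SE. Dpt and Smoc2 had 0 counts in both TE libraries, and Lum and Scara5 had 0 in both SE libraries. The 5 endothelial markers (Pecam1, Cdh5, Kdr, Tek, Emcn) summed to between 1034 and 5825 in the fresh libraries and to at most 33.6 in the expanded ones. TF replicate 1 stood apart in its haematopoietic markers, with 5394 against 485 in TF replicate 2. Markers of differentiated muscle (Myog, Acta1, Ckm, Myh3, Tnnt3, Tnnt1, Mymk) went the other way, from 13709 and 7943 in TF to 107197 and 112160 in TE, and from 2070 and 1574 in SF to 104404 and 219105 in SE. In bulk RNA, fewer cells of a type and less RNA per cell cannot be told apart.

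**Figure D1:**
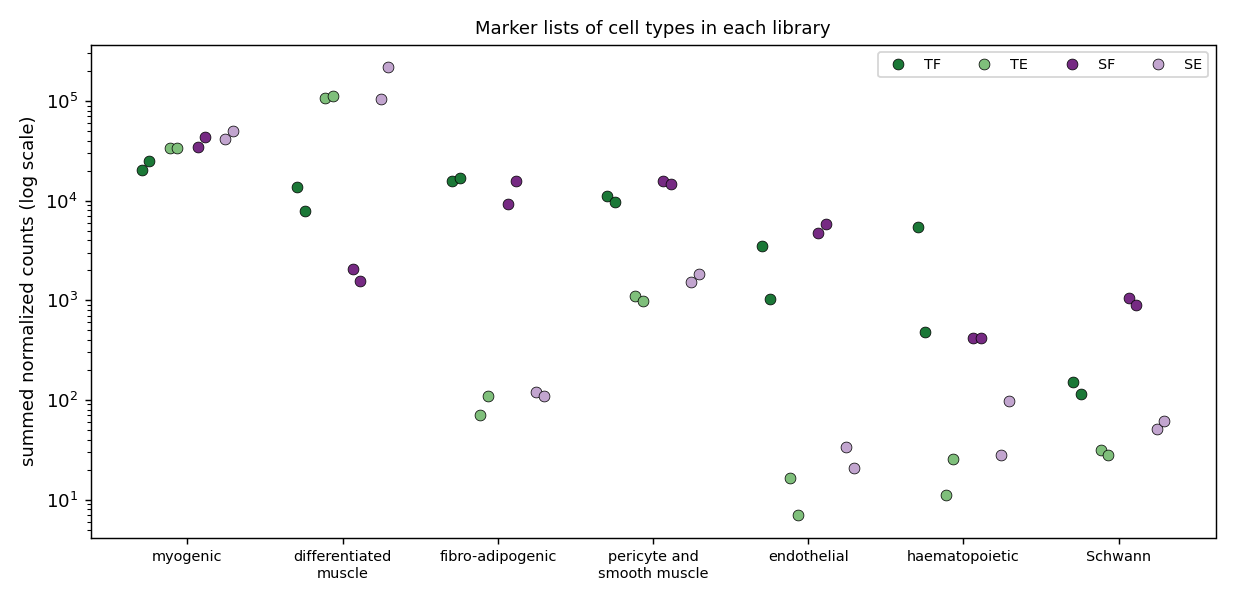
Summed normalized counts (log scale) of 7 lists of cell type markers in each of the 8 libraries, colored by group, with 2 points per group. The fibro-adipogenic and endothelial lists were high in the 4 fresh libraries and low in the 4 expanded ones, and the differentiated muscle list was lowest in SF and highest in the expanded groups.

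Mstn (chromosome 1, 53061640 to 53068079, plus strand, GRCm38 with GENCODE M21) was close to absent from freshly isolated cells and present after expansion. Its normalized counts were 5.19 and 8.61 in TF and 12.7 and 0 in SF, which together rested on 21 reads. They were 68.9 and 124 in TE and 249.6 and 538 in SE. All 4 expanded libraries lay above all 4 fresh ones, and both SE libraries lay above both TE libraries. The log2 fold change was 3.83 in TE versus TF (edgeR adjusted p = 0.0198, standard error 1.0) and 6.17 in SE versus SF (edgeR adjusted p = 0.0016, standard error 1.08). The first call was lost without TF replicate 1 (adjusted p = 0.0578). The second was 5.17 without SF replicate 2, and 5.51 without SE replicate 2. Without SF replicate 1 the fresh satellite cells held 0 counts, which allows up to 3.42 normalized counts, and the SE mean was 115 times that limit. With SF replicate 1 kept, which held 12.7, the ratio of the means of SE and SF was 61.8.

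The TE to SE difference of Mstn, with means of 96.5 ± 39.1 and 394 ± 204 (SD, n = 2 each), was -2.01 on the log2 scale and was not called (edgeR adjusted p = 0.222, standard error 0.844), although it passed with no filter on low counts (0.0127) and without SF replicate 2 (0.0453). The rise on expansion was not shown to differ between the origins either (edgeR log2 difference -2.33 with a standard error of 1.41 and an adjusted p of 0.316), except without SF replicate 1 (adjusted p = 0.0306), where the fit compares with 0 counts in SF. The markers of differentiated muscle moved with Mstn, being higher in the expanded libraries. In each expansion 6 of the 7 rose, beside 9.86% of all genes in TE versus TF and 20.9% in SE versus SF. In TF versus SF, where Mstn was near 0 in both groups, 6 of these markers were higher in TF, beside 15.1% of all genes. Their part in the Mstn result was not tested. Over the 8 libraries the genes whose log2 normalized counts were most like those of Mstn, out of 12680 compared, were Gadd45gip1 (Pearson r = 0.993), Nrap (0.987), which encodes a muscle protein of myofibril assembly, and Gm12070 (0.983). These correlations describe 8 libraries that fall into 4 groups.

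Gdf11 (chromosome 10, 128882295 to 128891718, minus strand) behaved differently in the cells of the 2 origins. The normalized counts were 508 and 523 in TF and 265 and 363 in TE. They were 348 and 455 in SF and 843 and 782 in SE. SE lay above the other 6 libraries, while TE lay below TF. In SE versus SF Gdf11 rose, with a log2 fold change of 1.20 (edgeR adjusted p = 0.00497, standard error 0.26), and the call was kept with each library left out. In teratoma-derived cells the change was -0.66 (standard error 0.258) and was not called (adjusted p = 0.0892). The difference between these changes was -1.86 (edgeR adjusted p = 0.00922, standard error 0.366), and TE lay below SE, at -1.35 on the log2 scale (edgeR adjusted p = 0.0136, standard error 0.26). Both of these calls were lost without TE replicate 1, at adjusted p-values of 0.0581 and 0.165.

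The protein products of Mstn and Gdf11 are closely related, and reads common to both genes could be split between them. In the GENCODE transcripts 0 stretches of 31 bases, the default word length of kallisto, were common to any pair of the 10 genes, and the longest run shared by the longest Mstn and Gdf11 transcripts was 12 bases, gcccaactgtgg, in the coding part of each. All 8 counts of Mstn and of Gdf11 were whole numbers. The bases upstream of the start sites were also unlike. They are shown for the ligand genes whose levels parted on expansion, with Mstn higher in both expanded groups, Gdf11 higher in SE, and Inhba lower in both. Each sequence holds the 250 bases before the RefSeq start site (GRCm38.p6), 5′ to 3′ on the strand of the gene, and capitals mark each match to the E box, CANNTG, the palindromic motif bound by the MyoD family. The windows are chr1:53061390-53061639 (plus strand), chr10:128891719-128891968 (minus strand) and chr13:16011601-16011850 (plus strand).
Mstn: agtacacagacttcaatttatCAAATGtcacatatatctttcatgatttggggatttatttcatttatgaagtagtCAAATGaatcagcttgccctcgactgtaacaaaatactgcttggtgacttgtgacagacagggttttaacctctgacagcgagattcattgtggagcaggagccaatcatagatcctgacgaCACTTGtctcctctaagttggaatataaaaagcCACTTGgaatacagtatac
Gdf11: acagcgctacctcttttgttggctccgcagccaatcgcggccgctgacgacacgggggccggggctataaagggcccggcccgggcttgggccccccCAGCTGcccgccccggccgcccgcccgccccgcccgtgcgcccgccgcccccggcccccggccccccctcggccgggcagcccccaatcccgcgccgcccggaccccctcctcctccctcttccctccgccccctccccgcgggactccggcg
Inhba: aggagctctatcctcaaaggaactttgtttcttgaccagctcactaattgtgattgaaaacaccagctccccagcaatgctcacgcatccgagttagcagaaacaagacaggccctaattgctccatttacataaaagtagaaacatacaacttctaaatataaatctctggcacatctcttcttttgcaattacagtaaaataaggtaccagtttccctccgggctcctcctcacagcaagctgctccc

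The Mstn window held 4 E boxes, at positions -229, -174, -52 and -19, given as the first base of the motif relative to the start site. The Gdf11 window held 1, CAGCTG, at position -153, and the Inhba window 0. Of 32851 such windows in the RefSeq table, 66.2% held at least 1 E box and 3.84% held 4 or more. Mstn also had 2 matches to CAGAC, a core of Smad binding sites searched on both strands (as CAGAC or GTCTG), neither of which overlapped an E box. This motif was held at least once by 42.2% of windows. GC content was 38.4% for Mstn, 81.2% for Gdf11 and 43.2% for Inhba. Among the other genes, Fstl3 held 3 E boxes and Acvr1b 1, and Inhbb, Fstl1, Acvr2a and Acvr2b held 0. Fst had no entry. These are matches of letters, and binding was not measured.

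Inhba (chromosome 13, 16011851 to 16031621, plus strand) encodes the subunit of activin A and was lower after expansion in cells of either origin. It had 779 and 603 normalized counts in TF and 696 and 629 in SF. After expansion it had 86.1 and 130.3 in TE and 182 and 349 in SE. All 4 fresh libraries lay above all 4 expanded ones, and TE lay below SE. The log2 fold change was -2.62 in TE versus TF (edgeR adjusted p = 0.000835, standard error 0.375), which was kept with each library left out. It was -1.12 in SE versus SF (edgeR adjusted p = 0.0301, standard error 0.355), a call that was lost with only those groups in the fit (adjusted p = 0.062) and without SF replicate 1, SF replicate 2 or SE replicate 1 (0.0955, 0.0594 and 0.167). Without SE replicate 1 the value was -0.70. Neither the difference between TE and SE (-1.27, edgeR adjusted p = 0.0686, standard error 0.362) nor that between the expansion effects (-1.49, edgeR adjusted p = 0.0786, standard error 0.502) was called. The first passed with DESeq2 (adjusted p = 0.0232), with no filter (0.00341) and without SE replicate 1 (0.00679), and the second with no filter (0.0132) and without SE replicate 1 (0.01). The 3 most similar genes were Slc25a23 (r = 0.989), Trf (0.986) and Dhrs3 (0.986). Each of the 8 Inhba counts carried decimals, and the gene overlaps the antisense gene Gm48444.

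Inhbb, the activin B subunit gene (chromosome 1, 119415465 to 119422248, minus strand), was highest in fresh satellite cells. Its normalized counts were 600.0 and 632 in SF, above the other 6 libraries. They were 358 and 236 in TF, 286 and 199 in TE and 222 and 124 in SE. TE overlapped both TF and SE, and TF lay above SE. Inhbb fell in SE versus SF, with a log2 fold change of -1.64 (edgeR adjusted p = 0.00687, standard error 0.376), and the call was kept with each library left out. In teratoma-derived cells the value was -0.24 (edgeR adjusted p = 0.668, standard error 0.369). The difference between these effects was 1.40 (standard error 0.523) and missed the threshold (adjusted p = 0.109 by edgeR). Without SE replicate 1 it was 1.88 and passed (0.032).

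**Figure D2:**
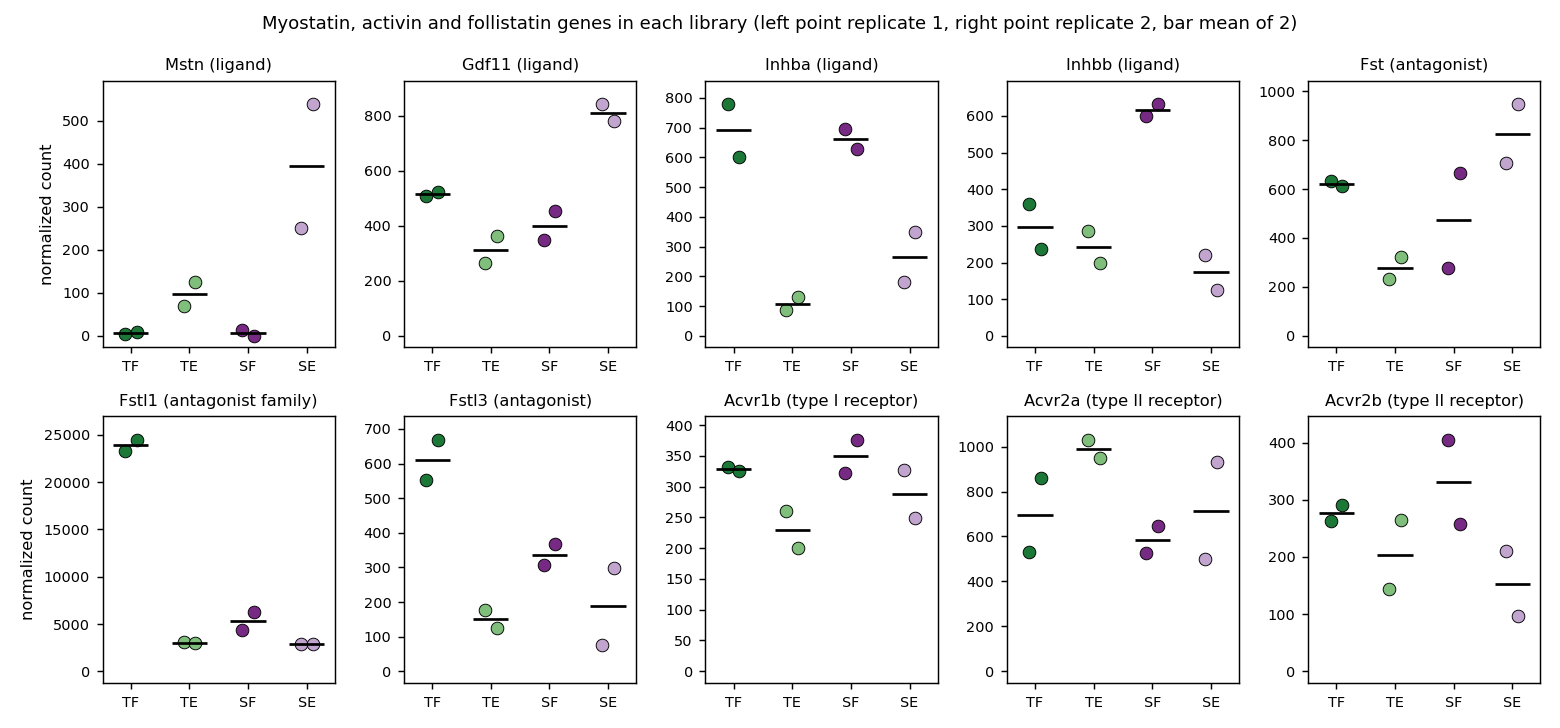
Normalized counts (linear axis, a scale of its own for each gene) of the 10 genes in the 8 libraries, with replicate 1 on the left, replicate 2 on the right and a bar at the mean. Mstn was near 0 in TF and SF, Inhba was lower in both expanded groups, Fstl1 was highest in TF, and the points of Acvr2a and Acvr2b in SE lay far apart.

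Fst, the gene of follistatin (chromosome 13, 114452290 to 114458951, minus strand), was lower in TE than in TF and SE, and the effect of expansion on it differed between the origins. It had 631 and 614 normalized counts in TF and 233 and 324 in TE. In the satellite groups it had 279 and 666 in SF and 706 and 947 in SE. The TE libraries lay below those of TF and of SE, and the SF replicates were so far apart that one fell inside the range of TE and the other above TF. Neither expansion effect alone was called, at -1.11 in TE versus TF (edgeR adjusted p = 0.0642, standard error 0.391) and 0.99 in SE versus SF (edgeR adjusted p = 0.0672, standard error 0.388). The difference between them was called, at -2.09 (edgeR adjusted p = 0.0331, standard error 0.551), and so was the difference of TE from SE, at -1.55 (edgeR adjusted p = 0.0448, standard error 0.393).

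Both Fst calls were close to the threshold. The difference between the effects was lost without TF replicate 1, TF replicate 2 or TE replicate 1 (adjusted p = 0.0525, 0.053 and 0.101) and was -2.90 without SF replicate 2. That of TE from SE was lost without TE replicate 1, TE replicate 2 or SE replicate 2 (0.235, 0.0857 and 0.0767) and in a test against the fold threshold itself (0.0687). Conversely, TE versus TF passed with DESeq2 (adjusted p = 0.0296), and in edgeR with only those groups in the fit (0.00786) and with no filter on low counts (0.00204). SE versus SF also passed with no filter (edgeR adjusted p = 0.00407), and its log2 fold change was 1.80 without SF replicate 2. The genes most like Fst over the 8 libraries were Ampd2 (r = 0.931), Eef2 (0.928) and Kremen1 (0.910).

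Fstl1 (chromosome 16, 37776873 to 37836514, plus strand), which encodes a secreted glycoprotein, was the most abundant of the 10 genes and set TF apart. TF held 23262 and 24506 normalized counts. SF held 4364 and 6255, TE 3093 and 2962, and SE 2892 and 2863. Every TF library lay above the other 6, and both SF libraries lay above the expanded ones. Fstl1 was higher in TF than in SF, at 2.32 on the log2 scale (edgeR adjusted p = 0.000231, standard error 0.226) and fell in TE versus TF, at -2.92 (edgeR adjusted p = 2.77e-05, standard error 0.231). Both calls were kept with each library left out. The value in SE versus SF was -0.70 (edgeR adjusted p = 0.0282, standard error 0.217), and this call was lost in 7 of the 8 fits that left out a library, at adjusted p-values up to 0.162. It was -0.36 without SF replicate 2. Of the stretches of 31 bases in its transcripts, 6.66% also occur in other genes. TE and SE, with means of 3027 ± 92.5 and 2878 ± 21 (SD, n = 2 each), were close in Fstl1, with a difference of 0.10 (edgeR adjusted p = 0.901, standard error 0.216). The expansion effects on Fstl1 differed by -2.23 on the log2 scale, with the larger fall in teratoma-derived cells (edgeR adjusted p = 0.00186, standard error 0.308).

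Fstl3, which encodes a second extracellular antagonist of activin and myostatin (chromosome 10, 79777272 to 79782630, plus strand), had 552 and 669 normalized counts in TF and 177 and 126 in TE. It had 306 and 367 in SF, and 76.5 and 299 in SE. TF lay above the other 6 libraries. The log2 fold change of TE versus TF was -1.95 (edgeR adjusted p = 0.0258, standard error 0.544), a call lost without TF replicate 2, TE replicate 1 or TE replicate 2 (0.072, 0.0526 and 0.118). In satellite cells the value was -0.65 (edgeR adjusted p = 0.341, standard error 0.531), and it turned on the SE replicates, being 0.047 without SE replicate 1 and -1.94, then called at an adjusted p of 0.00374, without SE replicate 2. The difference between TF and SF, 1.02 (standard error 0.53), was not called (adjusted p = 0.196), but passed with no filter (0.0333) and without SE replicate 1 or 2 (0.0268 and 0.0329).

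The falls of Inhba, Fstl1 and Fstl3 in TE went together with those of the other cell types' markers. In TE versus TF all 6 fibro-adipogenic and all 5 endothelial markers fell by the same test, and in SE versus SF 5 of 6 and 5 of 5 did. Over all genes 16.2% and 19.8% fell in these comparisons. The 5 pericyte and smooth muscle markers fell in both expansions, from sums between 9681 and 15672 in the fresh libraries to between 982 and 1848 in the expanded ones, and the 5 haematopoietic markers fell in TE versus TF. In TF versus SF, where Fstl1 was higher in TF, the marker lists were mixed by edgeR. Of the 6 fibro-adipogenic markers, 2 were higher in TF, Lum (2.20) and Pdgfra (1.41), and 0 lower. Of the 5 pericyte and smooth muscle markers, 1 was higher, Pdgfrb (1.52), and 2 lower. The endothelial list had 0 higher and 1 lower, the haematopoietic 3 and 0, and the Schwann 0 and 2. Over all genes 15.1% were higher and 9.13% lower. The collagen gene Col1a1 was also higher (3.23). The part of these markers in these results was not tested.

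**Figure D3:**
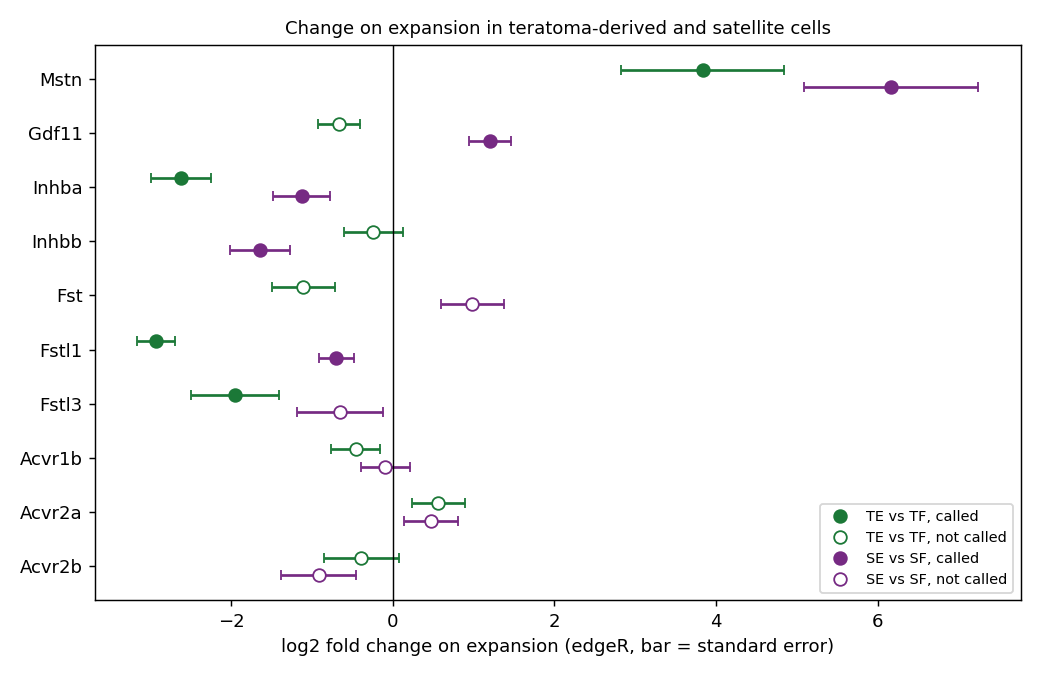
Log2 fold change on expansion of each of the 10 genes in teratoma-derived cells (TE versus TF, green) and satellite cells (SE versus SF, purple), with bars of 1 standard error from edgeR and filled points for called genes. Mstn was higher and Inhba lower in both, while the points of Gdf11 and Fst lay on opposite sides of 0.

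No receptor gene was called. The type I receptor gene Acvr1b (chromosome 15, 101174067 to 101213684, plus strand) had between 199.7 and 376 normalized counts in all 8 libraries, with 332 and 325 in TF, 261 and 199.7 in TE, 322 and 376 in SF and 326 and 249.7 in SE. Acvr2a (chromosome 2, 48814109 to 48903269, plus strand), a type II receptor gene, had 529.7 and 859 in TF, 1031 and 949 in TE, 527 and 645 in SF and 499 and 932 in SE. Acvr2b (chromosome 9, 119402118 to 119434995, plus strand), the type II receptor gene best known for binding myostatin, had 264 and 292 in TF, 145 and 264 in TE, 405 and 258 in SF and 210.3 and 96.1 in SE. The replicates of Acvr2a in TF and SE and those of Acvr2b in TE, SF and SE were far apart, and only the 2 TE libraries of Acvr2a lay above the other 6.

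Over the 3 receptor genes and 5 comparisons, edgeR called 0 of 15 differences, with 0 at an unadjusted p below 0.05, and DESeq2 called 0. The lowest adjusted p-value was 0.139, for Acvr2b in SE versus SF (log2 fold change -0.92, standard error 0.465). The standard errors of the 15 differences lay between 0.303 and 0.653. Without SE replicate 1 both Acvr2a (0.88, adjusted p = 0.0362) and Acvr2b (-1.55, adjusted p = 0.0363) passed in SE versus SF. Without SE replicate 2, Acvr2a was -0.039 in SE versus SF.

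Compared per length, the order of the genes changed with the group. Levels between genes were set on normalized counts per kilobase of the longest coding transcript, on which Fstl1 came first in every group, at 6303 ± 232 in TF, 799 ± 24.4 in TE, 1401 ± 353 in SF and 759 ± 5.55 in SE (SD, n = 2 each). Mstn was last in TF (2.55 ± 0.894) and SF (2.35 ± 3.33), in place 9 in TE (35.7 ± 14.4) and in place 4 in SE (146 ± 75.4). In SE its range overlapped that of Gdf11 (199.9 ± 10.6) and Acvr2a (126 ± 53.8). Inhba was last in TE, at 16.9 ± 4.89, below Mstn in both TE libraries. Behind Fstl1, TF was led by Fstl3 (312 ± 42.5) and Fst (219.7 ± 4.25), TE by Acvr2a (174 ± 10.2) and Fst (98.2 ± 22.7), SF by Fstl3 (172 ± 22.2) and Fst (167 ± 96.6), and SE by Fst (292 ± 60.0) and Gdf11 (199.9 ± 10.6). In SF the range of Fst, 98.5 to 235, overlapped those of Fstl3, Inhbb, Acvr2b, Inhba, Acvr2a and Gdf11. In TE the range of Fst, 82.2 to 114, overlapped those of Fstl3, Gdf11 and Acvr2b. The places of Fst in these groups are thus not separated from those of the genes named.

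The ratio of Mstn to Gdf11 per kilobase was 0.0154 and 0.0247 in TF, 0.390 and 0.513 in TE, 0.0550 and 0 in SF and 0.445 and 1.03 in SE. That of Fst to Inhba was 1.83 and 2.30 in TF and 0.905 and 2.39 in SF, against 6.10 and 5.61 in TE and 8.73 and 6.11 in SE. For this pair, every expanded library thus had a higher ratio of the antagonist to the activin A subunit than every fresh one. In TE both genes were lower per kilobase than in TF, Fst at 98.2 against 219.7 and Inhba at 16.9 against 108. Inhbb, the activin B subunit gene, changed less than Fst, from 69.9 in TF to 57.0 in TE. The fall of Inhba went together with that of other cell types' markers, whose part was not tested. The Acvr2a to Acvr2b ratio did not separate expanded from fresh libraries. It was 1.12 and 1.65 in TF, 3.98 and 2.01 in TE, 0.727 and 1.40 in SF and 1.33 and 5.41 in SE.

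**Figure D4:**
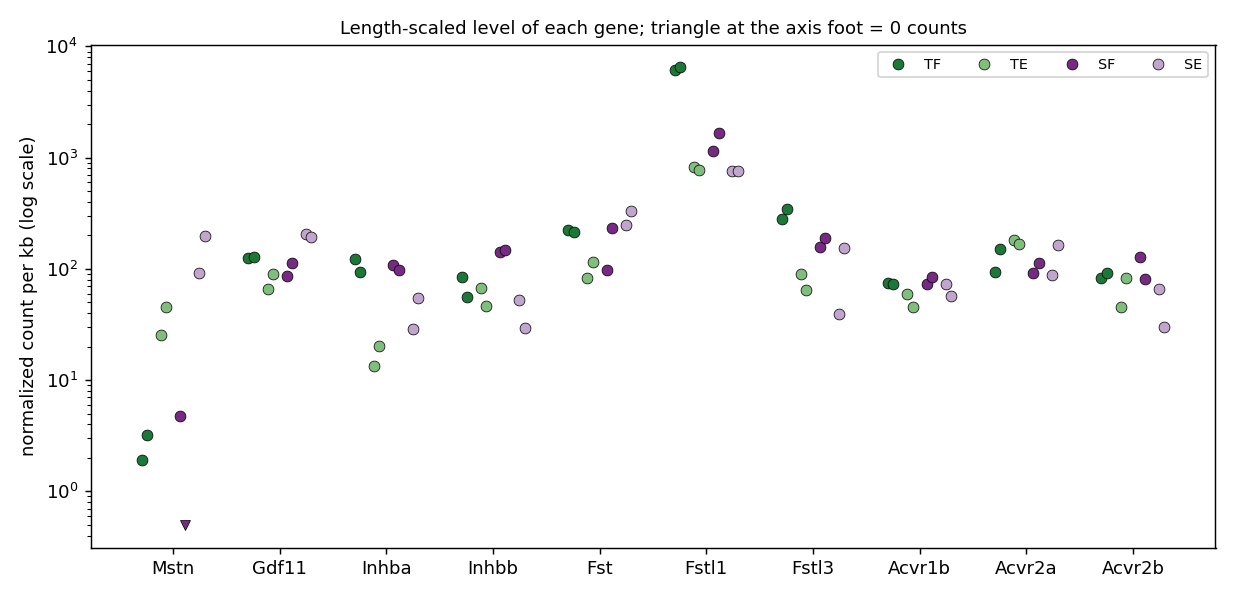
Normalized counts per kilobase of the longest coding transcript (log scale) of the 10 genes in the 8 libraries, colored by group, 2 points per group; the triangle marks 0 counts of Mstn in SF replicate 2. Fstl1 was the highest gene in every library, and Mstn ranged from the lowest level in the fresh libraries to that of Gdf11 in SE replicate 2.

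Counted over the 10 genes, 4 were called in TE versus TF, with Mstn higher and Inhba, Fstl1 and Fstl3 lower, against 26.1% of all tested genes (9.86% higher and 16.2% lower). In SE versus SF, 5 were called, with Mstn and Gdf11 higher and Inhba, Inhbb and Fstl1 lower, against 40.7% of all genes (20.9% higher and 19.8% lower). In TF versus SF only Fstl1 was called, 1 of 10 against 24.2% (15.1% higher and 9.13% lower). In TE versus SE, Gdf11 and Fst were called and lower in TE, 2 of 10 against 7.21% (3.15% higher and 4.07% lower). The difference between the expansion effects was called for Gdf11, Fst and Fstl1, 3 of 10 against 14.3% of all genes (4.7% higher and 9.62% lower). For all 3 the log2 fold change on expansion was lower in the teratoma-derived cells. This concerns the change, and the level after expansion was called lower in TE than in SE for Gdf11 and Fst but not for Fstl1. Among the genes not called, the log2 values lay between -1.11 (Fst) and 0.57 (Acvr2a) in TE versus TF, and between -0.92 (Acvr2b) and 0.99 (Fst) in SE versus SF. They lay between -0.89 (Inhbb) and 1.02 (Fstl3) in TF versus SF, between -2.01 (Mstn) and 0.51 (Inhbb) in TE versus SE, and between -2.33 (Mstn) and 1.40 (Inhbb) in the difference between the effects. Shares of 10 genes are coarse, and those of SE versus SF and TF versus SF were close to or below the background. The median log2 fold change of the 10 genes was -0.56 in TE versus TF, -0.37 in SE versus SF, 0.36 in TF versus SF and -0.29 in TE versus SE, beside -0.18, -0.23, 0.080 and -0.0034 over all tested genes. For the difference between the expansion effects it was -1.40, beside -0.18. With median-ratio size factors the all-gene median shifted by -0.19 in SE versus SF, -0.16 in TF versus SF and 0.14 in the difference between the effects, and changed 0 calls of the 10 genes. Under them the calls over all genes in TF versus SF were 2110 higher and 1943 lower, against 2655 and 1606, and in SE versus SF 3064 higher and 3958 lower, against 3677 and 3475.

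The rest of the pathway was read from 56 other genes, of which 51 were tested. In TE versus TF, 4 were higher and 24 lower (54.9% called, against 26.1% of all genes). In SE versus SF 5 were higher and 24 lower (56.9% called, against 40.7%). Their median log2 fold change was -1.38 and -0.98 in these comparisons, beside -0.18 and -0.23 over all genes. It was the same with the 3 and 2 genes that had 0 counts throughout a group set at their bound. In TF versus SF 5 were higher and 6 lower (21.6% called, against 24.2% of all genes), and in TE versus SE 0 were higher and 8 lower (15.7%, against 7.21%). Among the 7 other ligand genes (Inha, Inhbc, Inhbe, Nodal, Gdf1, Gdf3, Gdf15), 4 had enough counts. Over the 5 comparisons edgeR called 0 of these 20 differences, with 1 at an unadjusted p below 0.05, and DESeq2 called 1.

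Of the 6 proteases that cut the ligand precursors, 5 fell in TE versus TF, where 16.2% of all genes did, and 3 fell in SE versus SF, where 19.8% did. Furin, the general proprotein convertase, was -0.85 in the first (edgeR adjusted p = 0.00974) and -0.033 in the second (0.901). Bmp1, a tolloid-type protease able to free myostatin from its propeptide, had 2621 and 2599 normalized counts in TF and 576 and 520.4 in TE, and 2994 and 3649 in SF and 824 and 776 in SE. The log2 fold changes were -2.20 and -1.87 (edgeR adjusted p = 4.53e-05 and 6.53e-05). The tolloid-like gene Tll1 was at 216 and 256 in TF and at 3.74 and 2.31 in TE, and at 209 and 129 in SF and 38.6 in both SE libraries, a fall in SE versus SF as well (-1.93, edgeR adjusted p = 0.0154). For the proprotein convertase gene Pcsk6 the expanded groups also parted, with 6.74 and 0 normalized counts in TE against 215 and 85.8 in SE. Both Tll1 and Pcsk6 were called lower in TE than in SE (adjusted p = 0.00803 and 0.00863), although the TE values rest on at most 9 counts. Pcsk5 was at 1010.1 and 1198 in TF, 1442 and 1382 in SF and at most 19.3 in each expanded library. Fibro-adipogenic, endothelial and pericyte markers also fell in both expansions, and their part in the protease results was not tested.

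Of 11 other antagonists and coreceptors, 10 were tested and 4 fell in each expansion. Over all genes 16.2% fell in TE versus TF and 19.8% in SE versus SF. Dcn, the proteoglycan decorin, which binds myostatin and is also abundant in fibroblasts, had 13515 and 12229 normalized counts in TF and 9758 and 16119.6 in SF, against at most 57.7 in any expanded library. Tgfbr3, the inhibin coreceptor betaglycan, had 2624 and 2971 in TF, 9854 and 11391 in SF and at most 19.3 in any expanded library. Bambi, a decoy receptor, fell in TE versus TF (-3.06 on the log2 scale) and in SE versus SF (-3.94). On expansion both Dcn and Tgfbr3 fell together with the fibro-adipogenic marker list, whose part was not tested. Between the fresh groups Tgfbr3 did not follow that list. It was lower in TF than in SF, where 2 of the 6 markers were higher in TF and 0 lower.

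Of the other 6 receptors, 4 fell in TE versus TF and 3 in SE versus SF, where Bmpr1a rose. Over all genes 16.2% fell in the first, and 19.8% fell and 20.9% rose in the second. Tgfbr1, a type I receptor that myostatin can also use, fell in both expansions (-1.38 and -1.32 on the log2 scale). Tgfbr2, the receptor of transforming growth factor beta itself, also fell (-2.57 and -0.96), and these effects differed (log2 difference -1.61, edgeR adjusted p = 0.0175). Among the signal transducers, Smad3 fell in both (-0.81 and -0.98), and Zfyve9, a Smad anchor, only passed in SE versus SF (-1.57). The difference of Zfyve9 between the expansion effects was itself called (adjusted p = 0.00676). The part of other cell types' markers, which also fell on expansion, in these receptor and transducer results was not tested.

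Genes that Smad2 and Smad3 are known to induce were mostly lower after expansion, as were the fibro-adipogenic markers. The part of those markers in these falls was not tested. Of 7 inhibitors of the pathway, several of which are themselves induced by it, 3 fell in TE versus TF and 5 in SE versus SF. Over all genes 16.2% and 19.8% fell in these comparisons. Pmepa1, which blocks Smad activation, had 4417 and 5315 normalized counts in TF and 596 and 559 in TE, and 10166 and 12470.5 in SF and 1066 and 1269 in SE. Its log2 fold changes were -3.02 and -3.09 (edgeR adjusted p = 1.53e-05 and 8.86e-06). Smad7 fell (-1.62 and -1.08), as did Skil (-1.62 and -1.37). Tgif1, a corepressor of Smads, fell in SE versus SF (-2.13). Of the 6 Smad2/3 responsive genes, 5 fell and 1 rose in TE versus TF, and 4 fell and 1 rose in SE versus SF. The shares of all genes that rose in these comparisons were 9.86% and 20.9%. Ccn2, a matricellular protein gene, fell in both (-3.95 and -2.18). Ltbp2 was not called in SE versus SF (0.10, edgeR adjusted p = 0.864). The one that rose was Cdkn1a (1.93 and 1.06), a cell cycle inhibitor with many other inputs, which was named after its values were seen. Tgfbi stood at 2819 and 1772 normalized counts in TF and 1674 and 2766 in SF, and at most at 45.1 in any expanded library. Col1a1, the collagen gene of fibroblasts, stood at 209379 and 213163 in TF against 262 and 121 in TE. It stood at 17607 and 32545 in SF against 3052 and 7582 in SE. The fibro-adipogenic markers fell in both expansions as well, though not by the same factor. Their sums went from 9356 and 15580 in SF to 119 and 109 in SE.

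Of the 4 atrophy effectors, 1 rose in TE versus TF, and 2 rose and 1 fell in SE versus SF. Over all genes 9.86% rose in the first, and 20.9% rose and 19.8% fell in the second. The muscle ubiquitin ligase gene Fbxo32 rose in SE versus SF (3.69 on the log2 scale), from 545 and 286 to 5165 and 4191 normalized counts. It stood at 582 and 368 in TF and 732 and 722 in TE, a difference that was not called, and TE was lower than SE (-2.66, edgeR adjusted p = 0.00131). The expansion effects on Fbxo32 differed by -3.02 (adjusted p = 0.00229). Trim63, the other muscle ubiquitin ligase gene, rose in both expansions (3.21 and 3.09). Of the transcription factor genes that drive them, Foxo3 fell in SE versus SF (-0.54, edgeR adjusted p = 0.0465) and was -0.27 in TE versus TF (0.32), and Foxo1 was -0.028 and 0.25, not called in either. Among the 4 myogenic transcription factor genes, Pax7 (-1.49 and -1.38) and Myf5 (-3.33 and -3.86) fell in both expansions, and Myog rose in both. Myod1 rose in TE versus TF (2.68) and was 0.63 in SE versus SF, not called (edgeR adjusted p = 0.0516). These 2 effects differed by 2.05 (edgeR adjusted p = 0.00359). The mean of Myod1 was 784 normalized counts in TF and 7802 in SF.

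**Figure D5:**
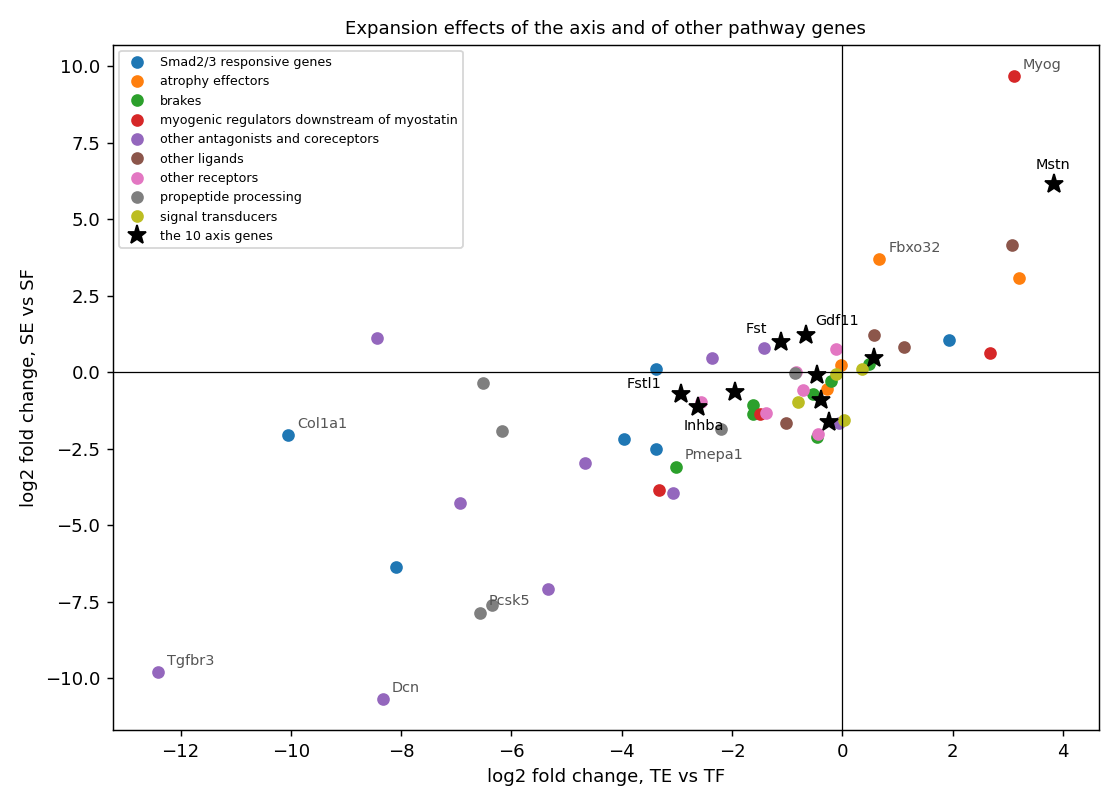
Log2 fold change on expansion in teratoma-derived cells (TE versus TF, horizontal) against that in satellite cells (SE versus SF, vertical) for the 10 genes (stars) and the 51 other tested genes of the pathway (points, colored by list). Mstn lay in the upper right with Myog, most other points lay at the lower left, and for genes near 0 counts in a group the size is set by the fit and is not a measured fold.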

How the data were processed

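RNA was sequenced from 8 libraries. The deposited values are raw estimated counts in 1 table with 24980 gene symbols. The submitters' processing notes name CASAVA, kallisto 0.44.0 and the builds GRCm38 and mm10. The annotation, the strand setting and how transcripts were summed to genes are not given in the sources used here. Whole numbers made up 74.4% to 84.4% of each library's values. Decimals arise where a program shares reads between transcripts, and all 8 values of Inhba, Acvr2a and Acvr2b had them. Inhba, Fst and Acvr2b overlap annotated antisense genes, Fstl3 overlaps Prss57 and Acvr2a overlaps Orc4 on the other strand, whose reads cannot be told apart if strand was not used.

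Counts were rounded, filtered with filterByExpr (17582 genes kept), scaled by TMM and modelled with edgeR (glmQLFit, glmQLFTest). All 4 groups shared 1 fit, with no replicate block and with Benjamini-Hochberg adjustment over all tested genes. The thresholds were those of the paper. The comparisons were TE versus TF, SE versus SF, TF versus SF, TE versus SE and the difference between the first 2. Comparisons that name the same group share its libraries. Standard errors were derived from the quasi-likelihood F statistic. The common dispersion was 0.233. The paper gives 2 biological replicates per group. The labels do not say whether these came from separate teratomas or animals, so p-values measure the spread between these libraries, which may not be that between animals. Intervals and limits from counts cover counting error only, and 3 counts were used as the limit of a count of 0.

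The 10 genes and the gene lists were chosen with earlier results of these data known. All 10 genes are named with their values, and of each pathway list up to 4 called genes with the largest change. The values of some genes of the pathway and marker lists are not reported here. Gene positions and lengths came from GENCODE M21 and promoter sequences from RefSeq on GRCm38.p6, in which 9 of the 10 genes had an entry. The alternatives were median-ratio size factors, no filter, DESeq2, only the compared groups, a test against the fold threshold, blocking by replicate number, and leaving out each library. The analysis was tested on simulated data. Versions were R 4.3.3, edgeR 4.0.16 and DESeq2 1.42.0.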

Additional observations from a re-analysis of the deposited data

Results flagged for a closer look

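The effect of expansion differed between teratoma-derived and satellite cells for 3 of the 10 genes, by edgeR's test of the difference itself. The log2 difference was -1.86 for Gdf11 (standard error 0.366, adjusted p = 0.00922), -2.09 for Fst (standard error 0.551, adjusted p = 0.0331) and -2.23 for Fstl1 (standard error 0.308, adjusted p = 0.00186). In each the log2 fold change on expansion was lower in the teratoma-derived cells. The signs of the single effects were opposite for Gdf11 and Fst, but of these 4 effects edgeR called just that of Gdf11 in satellite cells. With no filter on low counts both Fst effects passed (edgeR adjusted p = 0.00204 in TE versus TF and 0.00407 in SE versus SF). For Fstl1 both effects were called falls, that in satellite cells lost in 7 of the 8 fits without a library. The difference for Gdf11 was lost without TE replicate 1 (adjusted p = 0.0581), and that for Fst without TF replicate 1, TF replicate 2 or TE replicate 1 (0.0525, 0.053 and 0.101). Over all genes 14.3% were called.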

How the results depend on the processing

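With 2 libraries per group single libraries carried weight. Of the 10 genes' values in the 5 comparisons, the alternatives that keep all libraries left 271 with the same direction and side of the threshold, moved 11 past it and 4 below it, and turned the sign of 3; with a library left out these numbers were 343, 18, 22 and 17. The cause was not tested. The sign turned only in values that were not called: Acvr1b in TF versus SF was -0.089 with either DESeq2 or median-ratio scaling and -0.015 with only the compared groups. With a library left out, the ranges of the values that turned were -0.49 to 0.11 for Inhbb and -0.86 to 0.012 for Acvr2b in TE versus TF; -1.94 to 0.047 for Fstl3, -0.27 to 0.095 for Acvr1b and -0.039 to 0.88 for Acvr2a in SE versus SF; -0.67 to 5.92 for Mstn, -0.079 to 0.23 for Acvr1b and -0.35 to 0.22 for Acvr2b in TF versus SF; -0.96 to 1.02 for Fstl3 and -0.054 to 1.11 for Acvr2b in TE versus SE; and -0.29 to 0.61 for Acvr2a in the difference between the effects. The value of 5.92 for Mstn is a fitted size against 0 counts.

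Among the 10 genes, the number called without the filter was 2 in TF versus SF and 4 in TE versus SE. It was 3 in SE versus SF with only the compared groups, and 1 in TE versus SE in the test against the threshold. With a library left out it was 3 to 5 in TE versus TF, 4 to 6 in SE versus SF, 1 to 2 in TF versus SF, 0 to 3 in TE versus SE and 1 to 6 in the difference between the effects. Over all genes, TE versus SE had 2260 calls without the filter and 2147 with DESeq2. With a library left out, the calls over all genes were 2739 to 5439 in TE versus TF, 2639 to 5072 in TF versus SF, 653 to 1698 in TE versus SE and 1467 to 2996 in the difference between the effects, and the pathway genes called in TE versus SE were 4 to 14.

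Between groups, the deviations of libraries with the same replicate number from their group means had correlations between -0.026 and 0.075. With 2 libraries per group these values cannot show whether the replicate numbers pair the libraries, and the labels do not say. With a replicate block 4321 genes were called in TE versus TF, 6757 in SE versus SF, 3979 in TF versus SF, 1205 in TE versus SE and 2327 in the difference between the effects, and Fst passed in TE versus TF (adjusted p = 0.0273) and in SE versus SF (0.026). A model of only the compared groups could not be fitted for the difference between the effects.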
